A study of Rattus norvegicus with 10 samples.

Results

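Excitatory neuron transcription factors were examined here as a group of 8 genes, Neurod1, Neurod2, Neurod6, Tbr1, Satb1, Bcl11b, Emx2 and Zbtb20, chosen by name from 14354 genes in the deposited count table. All 8 had a row in the table and all 8 were among the 13088 genes that passed the filter on low counts. The RNA came from cultures of neurons with glia, grown from dissociated hippocampus of Sprague-Dawley rat embryos taken on embryonic day 18. Cultures at 19 days in vitro received either vehicle or 1 µM tetrodotoxin (TTX), a toxin that closes voltage-gated sodium channels and so stops neuronal firing, and both arms were kept for 24 h to 20 days in vitro. There were 5 libraries per arm, with 52254261 to 77757538 counts each for vehicle and 58785925 to 84921962 for TTX. The labels do not state whether the replicates were separate cultures, so the errors and p-values below describe the spread between these libraries, which may be technical.

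The 8 genes act at successive steps of forebrain neuron development. Neurod1, Neurod2 and Neurod6 encode basic helix-loop-helix proteins that pair with E-proteins, bind the E-box CANNTG and promote differentiation of excitatory neurons. Tbr1 is a T-box factor of early-born glutamatergic neurons, Bcl11b (also called Ctip2) a zinc-finger factor of deep-layer cortical and hippocampal neurons, and Satb1 a chromatin organiser found in cortical neurons and, in mouse, also in interneurons. Emx2 is a homeobox gene of cortical and hippocampal progenitors, and Zbtb20 a zinc-finger repressor needed for hippocampal pyramidal cell identity in mouse. The last pair is also known from astroglial cells, so in a mixed culture their RNA need not come from neurons alone.

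With firing blocked, Neurod2 and Tbr1 rose by the same factor, 2.67-fold and 2.65-fold, while Neurod1, Satb1 and Bcl11b rose by far smaller amounts, 1.29-fold, 1.27-fold and 1.16-fold. Neurod6, Emx2 and Zbtb20 did not pass the test. In all, 5 of the 8 genes were called higher and none lower, against a background of 35.4% of tested genes called higher and 35.0% called lower (edgeR's quasi-likelihood test, two-sided, adjusted p under 0.05 over all tested genes). None of the 8 was lower at an unadjusted p under 0.05 either, and none was called lower by DESeq2 or limma-voom. With so many genes called, a count of 5 of 8 does not set these factors apart. Their median log2 fold change was 0.28, beside 0.01 over all tested genes. Against a threshold of 1.5-fold, which 5.35% of genes exceeded upwards and 8.44% downwards, Neurod2 and Tbr1 passed and the other 6 did not. In bulk RNA such as this, more cells of a type and more RNA per cell cannot be told apart.

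**Figure D1:**
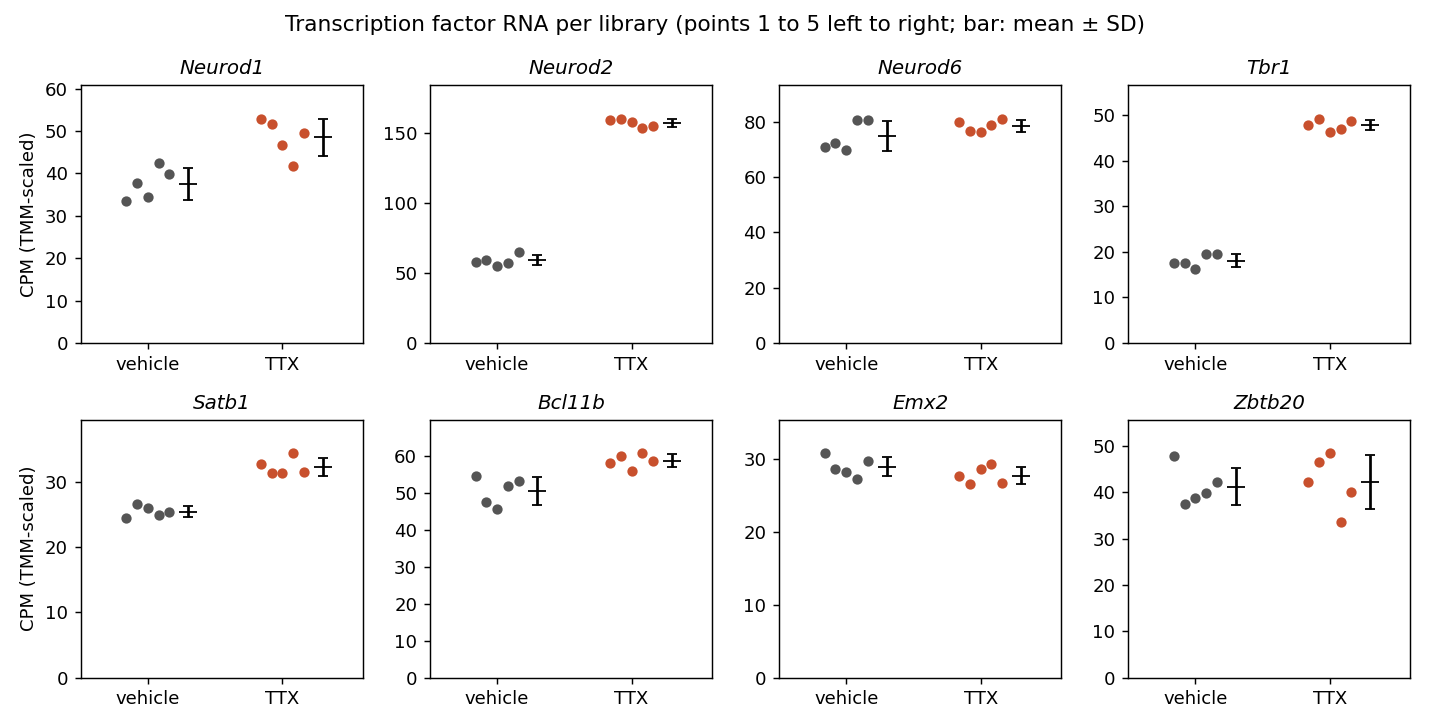
RNA level in CPM (counts scaled to library size) of each transcription factor in every library, vehicle replicates 1 to 5 in grey and TTX replicates 1 to 5 in orange, with the mean and SD beside them (n = 5 per group). Neurod2 and Tbr1 show a wide gap between the groups, Satb1 and Bcl11b a narrow one, and the other 4 genes overlap.

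Neurod2, which in mouse is required for the maturation of excitatory synapses, had 58.2, 59.6, 55.3, 57.3 and 64.8 CPM (counts scaled to library size) in vehicle replicates 1 to 5. In TTX replicates 1 to 5 it had 159.6, 160.4, 158, 154 and 155 CPM. Every TTX library was thus above every vehicle library, and the TTX libraries lay close together, with a coefficient of variation of 1.80% against 6.07% with vehicle. The log2 fold change was 1.42 ± 0.0368 (SE, adjusted p = 2.47e-13), which ranked 195 of 13088 tested genes from the top. The authors' deposited table gives a log2 fold change of 1.41 for Neurod2.

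Tbr1, which in mouse directs the identity of early-born cortical neurons, was the least abundant of the 8 with vehicle, at 17.7, 17.6, 16.2, 19.5 and 19.4 CPM. With TTX it stood at 47.9, 49.3, 46.4, 47.0 and 48.8 CPM, so that again the groups did not overlap. Its log2 fold change was 1.40 ± 0.0496 (SE, adjusted p = 5.64e-12), and 1.40 in the authors' deposited table for Tbr1.

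The promoter windows of Neurod2 and Tbr1, the pair that rose most, are shown with that of Neurod6, the NeuroD relative whose change did not pass the test. Each runs 5′ to 3′ on the gene's strand from 250 bases before to 50 bases after the annotated start (RefSeq, GRCr8). Capitals mark every E-box CANNTG and every TGACGT, the core of the cyclic AMP response element, read on both strands (ACGTCA on the other).
Neurod2 (chr10:83824228-83824527, minus strand): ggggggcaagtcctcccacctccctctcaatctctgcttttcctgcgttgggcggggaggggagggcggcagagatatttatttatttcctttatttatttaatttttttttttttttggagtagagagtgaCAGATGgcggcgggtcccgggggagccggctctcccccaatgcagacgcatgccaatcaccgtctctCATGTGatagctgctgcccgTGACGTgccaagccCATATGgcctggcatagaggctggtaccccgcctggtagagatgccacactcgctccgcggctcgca
Tbr1 (chr3:66759553-66759852, plus strand): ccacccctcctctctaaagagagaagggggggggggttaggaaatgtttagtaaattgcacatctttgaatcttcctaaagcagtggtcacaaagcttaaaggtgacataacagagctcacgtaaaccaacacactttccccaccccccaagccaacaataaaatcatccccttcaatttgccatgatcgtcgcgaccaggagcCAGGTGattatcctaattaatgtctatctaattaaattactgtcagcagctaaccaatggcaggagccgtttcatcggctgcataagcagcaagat
Neurod6 (chr4:86180106-86180405, minus strand): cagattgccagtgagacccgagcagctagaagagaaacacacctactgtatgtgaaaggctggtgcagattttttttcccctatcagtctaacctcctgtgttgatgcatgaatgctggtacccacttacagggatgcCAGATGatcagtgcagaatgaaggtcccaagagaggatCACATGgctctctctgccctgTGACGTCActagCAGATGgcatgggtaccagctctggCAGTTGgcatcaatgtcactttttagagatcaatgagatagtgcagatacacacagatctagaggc

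A RefSeq promoter window was matched by symbol for 5 of the 8 genes. Of these, Neurod6 held 4 E-boxes, Neurod2 held 3, and Neurod1, Tbr1 and Satb1 held 1 each, where 72.1% of 33469 rat promoter windows of the same length held at least 1. The E-box CAGATG (or CATCTG on the other strand), present in 16.6% of windows, occurred 2 times in Neurod6 and 1 time in Neurod2. TGACGT occurred in Neurod2, and in Neurod6 as the full palindrome TGACGTCA, against 7.94% and 1.83% of all windows. Neurod2 and Neurod6 thus held both CAGATG and TGACGT, and Neurod1, Tbr1 and Satb1 held neither. Such matches describe the sequence of the window and say nothing of binding. Any link between them and the changes in RNA was not tested.

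Neurod1 and Neurod6 belong to the same family as Neurod2. Neurod1, which acts in newborn granule neurons of the mouse dentate gyrus, had 33.4, 37.8, 34.5, 42.4 and 39.9 CPM in vehicle replicates 1 to 5 and 53.0, 51.6, 46.6, 41.8 and 49.6 CPM in TTX replicates 1 to 5. The groups overlapped, since TTX replicate 4 lay below vehicle replicate 4. Its log2 fold change of 0.37 ± 0.0719 (SE) passed the test (adjusted p = 0.000352).

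Neurod6, a marker of pyramidal neurons, had 70.7, 72.1, 69.6, 80.7 and 80.6 CPM with vehicle and 79.8, 76.5, 76.3, 78.7 and 81.1 CPM with TTX. Vehicle replicates 4 and 5 stood among the TTX libraries. Its log2 fold change was 0.07 ± 0.0437 (SE), with a 95% interval of -0.03 to 0.17 (adjusted p = 0.167), measured on 3693 to 6792 counts per library.

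Satb1 had 24.5, 26.6, 26.0, 24.96 and 25.3 CPM with vehicle and 32.8, 31.4, 31.4, 34.4 and 31.5 CPM with TTX, with no overlap. The difference was small but much larger than the spread within the groups, at a log2 fold change of 0.34 ± 0.0391 (SE, adjusted p = 2.00e-06). Bcl11b had 54.5, 47.6, 45.5, 51.9 and 53.1 CPM with vehicle and 58.0, 60.0, 56.0, 60.6 and 58.6 CPM with TTX. Its lowest TTX library lay just above its highest vehicle library (log2 fold change 0.22 ± 0.0473 SE, adjusted p = 0.000933). In 4 of the 8 genes, Neurod2, Tbr1, Satb1 and Bcl11b, every TTX library exceeded every vehicle library, where 28.2% of tested genes did so. None of the 8 was lower in every TTX library, where 29.1% of tested genes were.

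Emx2 had 30.7, 28.6, 28.2, 27.3 and 29.7 CPM with vehicle and 27.6, 26.5, 28.5, 29.2 and 26.6 CPM with TTX, and the groups overlapped. Its log2 fold change was -0.06 ± 0.0429 (SE, 95% interval -0.16 to 0.04, adjusted p = 0.214). Zbtb20 had 47.8, 37.5, 38.8, 39.9 and 42.1 CPM with vehicle and 42.2, 46.6, 48.4, 33.6 and 40.01 CPM with TTX. It was the most variable of the 8 with TTX, with a coefficient of variation of 13.8% there and 9.82% with vehicle. Its log2 fold change was 0.04 ± 0.0879 (SE, 95% interval -0.17 to 0.24, adjusted p = 0.736), and its sign turned when single libraries were left out (-0.02 to 0.11). For Zbtb20 a change of the size of that in Bcl11b could not be told from none.

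**Figure D2:**
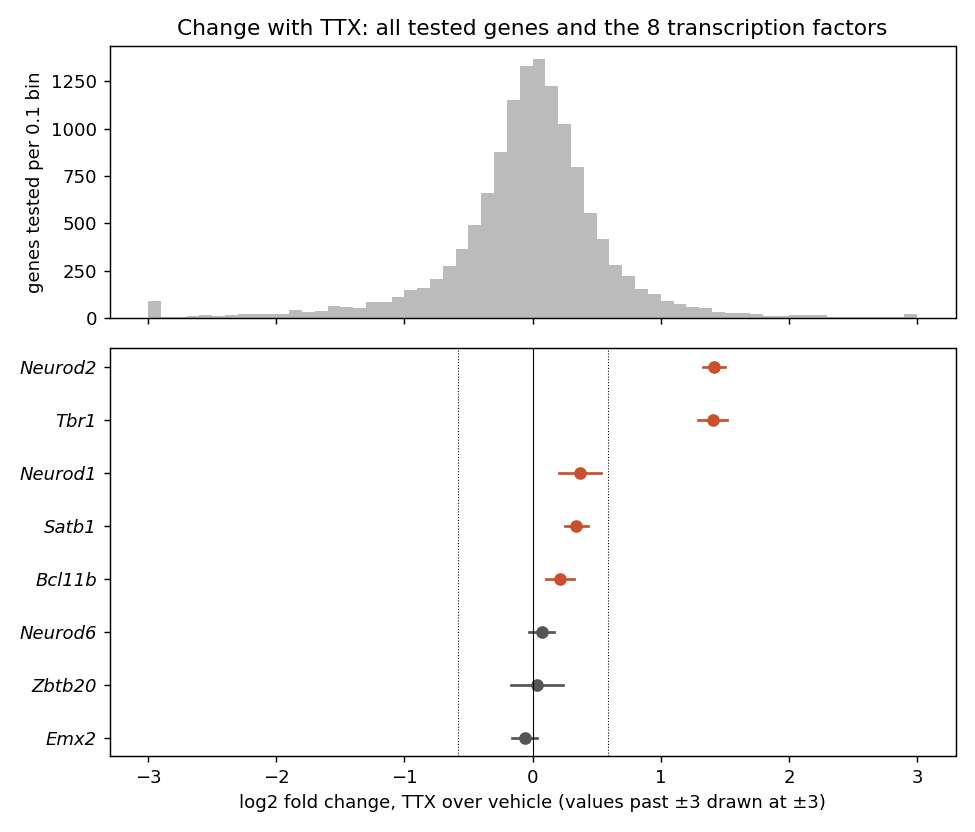
Top, number of tested genes per 0.1 bin of log2 fold change (TTX over vehicle). Bottom, the 8 transcription factors with 95% intervals, orange where the adjusted p was under 0.05, with dotted lines at 1.5-fold. Neurod2 at 1.42 and Tbr1 at 1.40 lie in the right-hand tail, and the other 6 lie between -0.06 and 0.37, inside the dotted lines.

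Levels of different genes were compared on the authors' FPKM scale, which divides by transcript length. With vehicle, Neurod6 had the highest mean (37.2 ± 2.51 FPKM, SD, n = 5), then Neurod2 (31.5 ± 1.72) and Neurod1 (20.1 ± 1.91). Emx2 (9.53 ± 0.441), Bcl11b (9.35 ± 0.680) and Satb1 (8.32 ± 0.282) followed, and neighbours among these 3 overlapped in their ranges. Zbtb20 (6.72 ± 0.663) and Tbr1 (4.45 ± 0.319) were lowest, and each lay below its neighbour in all 5 libraries.

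With TTX the order of levels changed at both ends. Neurod2 stood first at 84.9 ± 1.64 FPKM, above Neurod6 at 39.4 ± 0.915 and Neurod1 at 26.2 ± 2.36 in all 5 libraries. Tbr1 left the last place, at 11.9 ± 0.269 FPKM, and stood above Bcl11b (10.95 ± 0.313) in all 5 libraries. Bcl11b and Satb1 (10.6 ± 0.428) overlapped, and Emx2 (9.21 ± 0.414) and Zbtb20 (6.94 ± 0.974) came last.

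The 3 NeuroD genes together rose from 88.9 ± 5.26 to 151 ± 3.49 FPKM. Neurod2 made up 32.7% to 36.9% of that sum in the vehicle libraries and 55.3% to 57.3% in the TTX libraries. The share of Neurod6 went from 40.8% to 43.0% with vehicle to 25.1% to 27.2% with TTX, and that of Neurod1 from 21.3% to 24.3% to 15.6% to 18.5%. These shares are given as a description, with no test.

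**Figure D3:**
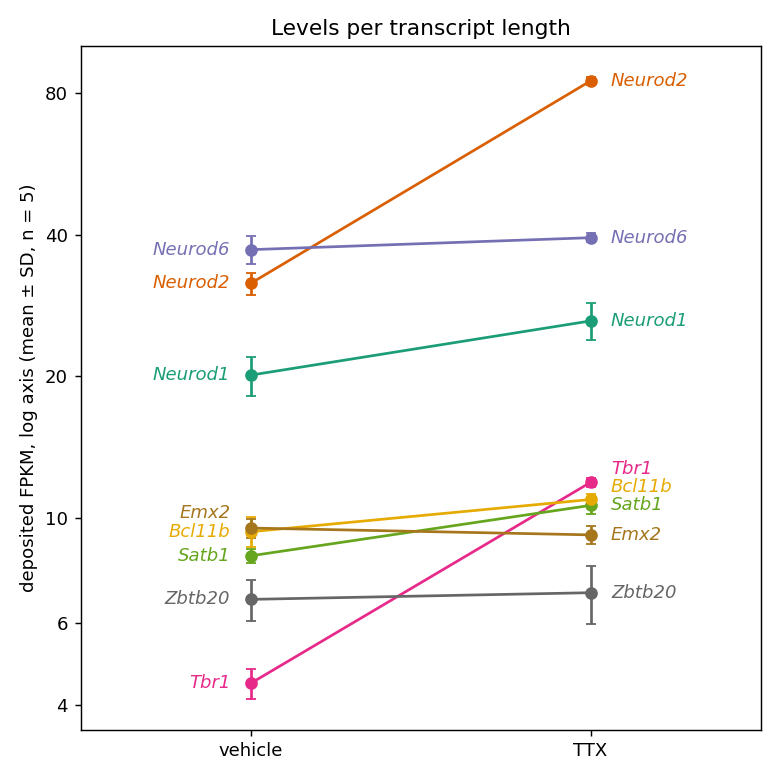
Mean FPKM (log axis, bars show SD, n = 5 per group) of each transcription factor with vehicle and with TTX. The lines of Neurod2 (31.5 to 84.9) and Tbr1 (4.45 to 11.9) run parallel and cross those of Neurod6, Bcl11b, Satb1, Emx2 and Zbtb20. Those of Bcl11b and Satb1 rise slightly, and those of Neurod6, Emx2 and Zbtb20 are nearly flat.

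Whether the genes differed from each other in their response was tested with the ratio of each pair of genes inside each library, which does not depend on how libraries are scaled. Of 28 pairs, 18 changed between the groups (exact permutation test over the 10 libraries, two-sided, adjusted over the 28 pairs). The smallest unadjusted p that 5 against 5 libraries allow is 0.00794. The ratio of Neurod2 to Tbr1 was 1.71 ± 0.0879 (log2, SD, n = 5) with vehicle and 1.72 ± 0.0382 with TTX. It changed by 0.01 ± 0.0428 (log2, SE; 95% interval -0.09 to 0.11; exact permutation adjusted p = 0.913), although both genes more than doubled.

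In contrast, Neurod2 rose against its relative Neurod1 by 1.05 ± 0.0801 and against Neurod6 by 1.34 ± 0.0474 on the log2 scale. Each of the 12 ratios of Neurod2 or Tbr1 to the remaining 6 genes separated the groups fully, by 1.04 to 1.48 (exact permutation adjusted p = 0.0139 for each). Neurod1 also rose against Neurod6 (0.30 ± 0.0674, adjusted p = 0.0139 by the same exact test), so the family members changed by 3 different amounts. Satb1 rose against Neurod6 by 0.27 and against Emx2 by 0.40, and Bcl11b against Emx2 by 0.28 (adjusted p = 0.0139 by the exact test).

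The ratio of Neurod1 to Satb1 changed by 0.03 (95% interval -0.21 to 0.27), that of Neurod1 to Bcl11b by 0.15 (-0.08 to 0.38), and that of Satb1 to Bcl11b by 0.12 (-0.04 to 0.29), and none of these passed. Neither did the ratios among Neurod6, Emx2 and Zbtb20. Neurod1 against Zbtb20 was only just called (0.34, adjusted p = 0.0494 by the exact test). That call ended without vehicle replicate 1, 3 or 5, or TTX replicate 1, 2, 4 or 5 (adjusted p = 0.0702 to 0.0936). That of Neurod1 against Emx2 ended without vehicle replicate 5 (adjusted p = 0.0523).

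**Figure D4:**
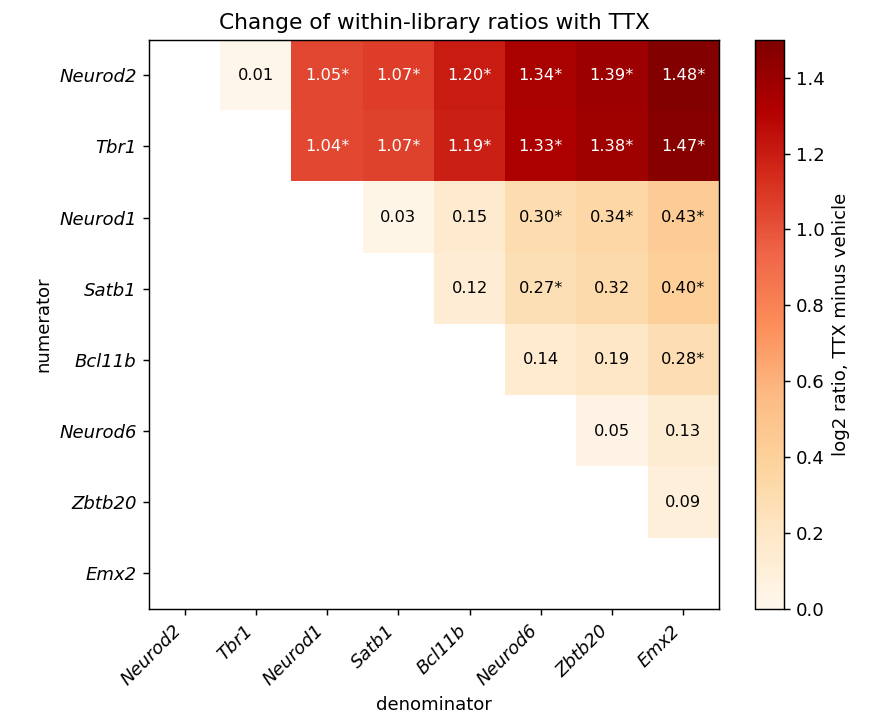
Change with TTX in the log2 ratio of the gene in the row (numerator) to the gene in the column (denominator) inside each library, with an asterisk where the exact permutation test passed after adjustment over 28 pairs. The rows of Neurod2 and Tbr1 hold values from 1.04 to 1.48 except for their own ratio of 0.01, and all other pairs lie between 0.03 and 0.43.

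Each gene was also set against neuronal RNA in the same library, using the mean log2 level of 16 pan-neuronal markers and of 12 excitatory markers. Against pan-neuronal markers Neurod2 rose 2.50-fold and Tbr1 2.48-fold, and against excitatory markers 2.34-fold and 2.32-fold (exact permutation adjusted p = 0.0212 for each, over 16 ratios). Satb1 rose 1.19-fold against pan-neuronal markers (adjusted p = 0.0212, exact test). The ratio of Emx2 to excitatory markers fell by 0.25 on the log2 scale (adjusted p = 0.0212, exact test). Emx2 itself changed by only -0.06 (edgeR adjusted p = 0.214), while 9 of the 12 excitatory markers were called higher and 2 lower. These 6 ratio calls were kept when any 1 library was left out.

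The ratio of Neurod6 to pan-neuronal markers changed by -0.02 (95% interval -0.11 to 0.06), that of Zbtb20 by -0.07 (-0.32 to 0.18), and that of Bcl11b to excitatory markers by 0.03 (-0.08 to 0.13). None of these 3 passed. Calls for Neurod1 and Emx2 against pan-neuronal markers, and for Neurod6 and Satb1 against excitatory markers (log2 changes of 0.27, -0.16, -0.12 and 0.15), were each lost without at least 1 of the libraries. As levels, the 16 pan-neuronal markers summed to 6998 to 7420 CPM with vehicle and 7148 to 7387 CPM with TTX.

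The close relatives of the 8 genes were followed as a list of 9, of which 3 could be tested. Bcl11a, the relative of Bcl11b, rose by 0.21 on the log2 scale, and Zbtb45, a relative of Zbtb20, by 0.27. Neurod4, a relative of the NeuroD genes, fell (log2 fold change -0.69, adjusted p = 0.0301 by edgeR), at a low level of 0.700 ± 0.0826 CPM with vehicle and 0.433 ± 0.179 CPM with TTX (SD, n = 5). The relatives tested thus moved in both directions.

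Of 13 partners and inhibitors of the NeuroD proteins that were tested, 8 rose, 2 fell and 3 did not pass. Over all genes 35.4% were called higher, 35.0% lower and 70.5% in either direction, and the list was not tested as a group. Among the E-proteins, Tcf12 rose 1.32-fold and Tcf3 1.08-fold, and Tcf4 was lower (log2 fold change -0.23). The Hes and Hey genes encode repressors that oppose proneural factors, and Heyl rose 2.97-fold, Hey1 1.89-fold and Hes6, an antagonist of Hes1 in mouse, 1.34-fold. Id1, whose product sequesters E-proteins, fell from 13.5 ± 1.061 to 6.75 ± 1.14 CPM (SD, n = 5). Its more abundant relative Id3 rose from a mean of 48.7 to 55.2 CPM. Id2 (37.5 CPM with vehicle, 37.6 with TTX) and Id4 (35.9 and 35.4) did not pass.

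Of 35 other transcription factors of forebrain projection neurons that were tested, 17 rose, 11 fell and 7 did not pass, with a median of 0.08. These counts, and those of the next lists, stand beside 35.4% of all genes called higher and 35.0% called lower, and are not read as particular to the lists. Sox4, a factor of immature neurons, rose 1.65-fold and Zeb2 1.54-fold, and Etv1 fell by 0.65 on the log2 scale. Bhlhe22 (2.15-fold) and Cux2 (2.07-fold) rose most in this list and were still below Neurod2 and Tbr1. Of genes reported to respond to Tbr1 in mouse cortex, 2 of 8 tested rose, 3 fell and 3 did not pass. The risers were Bhlhe22 and Bcl11b, itself one of the 8, and Cdh8, Reln and Grin2b fell by 0.53, 0.33 and 0.31. No direction of response was listed for these genes, so their counts are not read against the rise of Tbr1. Of cortical factors reported as repressed by Zbtb20 in mouse CA1, 2 of 7 tested rose (Tbr1 and Cux2) and 3 fell, among them Rorb (log2 fold change -0.59), while Zbtb20 itself did not pass.

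Markers of cell types moved in the same libraries, in which 35.4% of all genes were called higher and 35.0% lower, and none of the marker lists was tested as a group. Of 12 excitatory markers 9 rose and 2 fell (median 0.28), among them Nptx1, up 1.70-fold, Gria2, an AMPA receptor subunit, up 1.39-fold, and Slc17a6, a vesicular glutamate transporter, down by 0.94 on the log2 scale. As levels, the 12 summed to 3510 to 3796 CPM with vehicle and 4550 to 4816 CPM with TTX. Of 16 pan-neuronal markers 6 rose and 3 fell (median 0.07). Dcx, a marker of young neurons, rose 1.86-fold, Uchl1 rose by 0.26 on the log2 scale, and Eno2 fell by 0.28. Of 17 inhibitory markers, relevant to Satb1 and Bcl11b, 4 rose and 7 fell (median 0.06), with Gad1, Gad2 and Npy lower by 1.02, 0.93 and 0.50. The inhibitory markers summed to 1939 to 2046 CPM with vehicle and 1420 to 1504 CPM with TTX, while Satb1 and Bcl11b rose.

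Astrocyte markers, relevant to Emx2 and Zbtb20, rose in 8 of 12 and fell in 2 (median 0.47), again beside 35.4% of all genes called higher, 35.0% lower and 70.5% in either direction. Those with the smallest p were Gja1 (1.84-fold), Gfap (1.81-fold) and Aldoc (1.49-fold). The largest rise was that of Gjb6 (2.64-fold), at a low level. Gjb6 had 0.233 ± 0.106 CPM with vehicle and 0.611 ± 0.184 CPM with TTX (SD, n = 5). The 12 astrocyte markers summed to 10532 to 12308 CPM with vehicle and 15848 to 17791 CPM with TTX. Gfap alone had a mean of 5364 CPM with vehicle and 9702 CPM with TTX, so the sum largely follows that gene. Aqp4, which did not pass, varied widely with TTX (905 ± 811 CPM, SD, n = 5). Of 12 oligodendrocyte lineage markers 9 rose and 1 fell (median 0.46; Olig1, Gpr17 and Olig2 were 2.17-fold, 2.43-fold and 1.79-fold higher), with sums of 1319 to 1636 and 2148 to 2352 CPM. Of 12 microglial markers 3 rose, P2ry12, Ptprc and Itgam, and 9 did not pass (median 0.39; sums of 125.6 to 194 and 121 to 344 CPM). Of 11 progenitor and cell division genes 4 rose and 5 fell, with sums of 3007 to 3284 CPM with vehicle and 3977 to 4504 CPM with TTX. The division genes Top2a, Ccnb1 and Cdk1 were lower by 1.97, 1.89 and 1.59 on the log2 scale, and the progenitor markers Fabp7, Nes, Vim and Sox2 were higher by 0.65, 0.59, 0.36 and 0.27. Tested markers of every one of these lists had counts in both groups, and the part of these cells in the changes of the 8 factors was not tested.

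**Figure D5:**
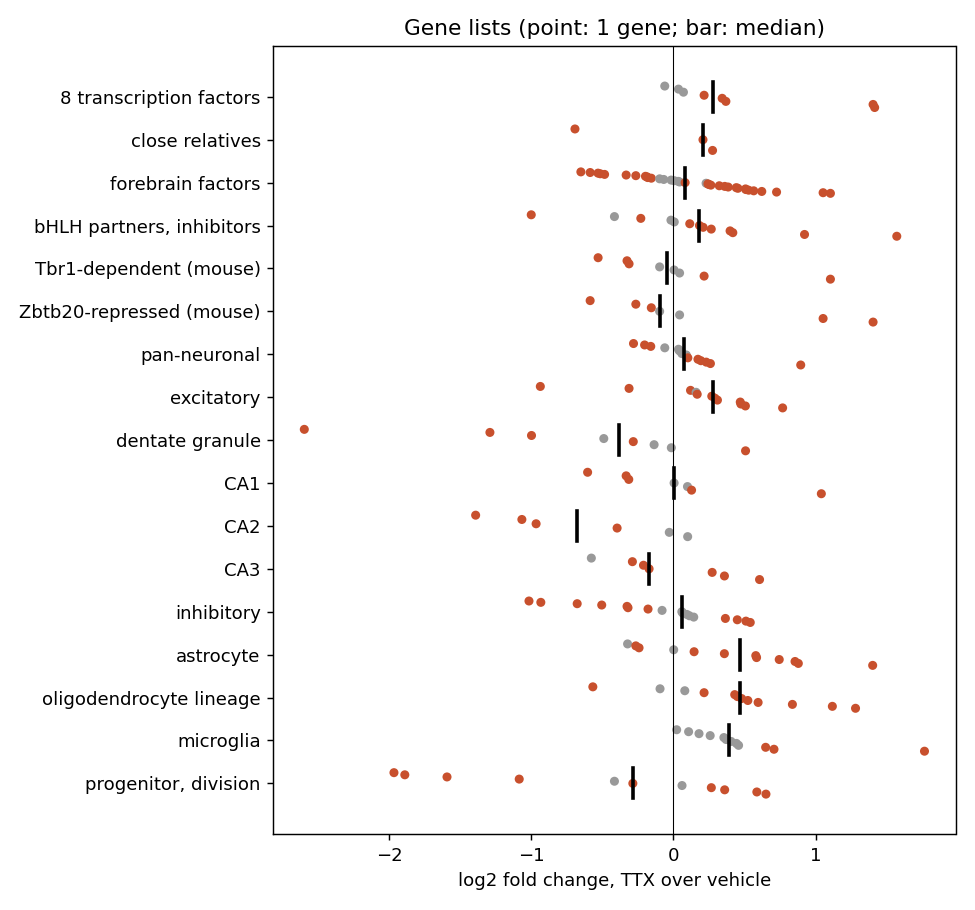
Log2 fold change (TTX over vehicle) of each tested gene in each list, orange where the adjusted p was under 0.05 and grey otherwise, with the list's median as a bar. Neurod2 and Tbr1 stand apart at about 1.4 in the top row, whose median is 0.28, and most other lists spread to both sides of 0.

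For each factor the most similar genes over the 10 libraries were sought among 11827 genes of at least 1 CPM on average, by Pearson's r of log2 CPM, given as a description. The points share the group difference and the libraries themselves. Neurod2 was closest to Zhx1 and Sv2b, a synaptic vesicle protein (r = 0.999 for each), and Tbr1 to Adamts3 and Tef (0.997 for each). Neurod1 was closest to Sgpp2 (0.966) and Casq2 (0.956), Satb1 to Cc2d1b and Pld2 (0.992 for each), and Bcl11b to Atp6v1f (0.994) and Ndufb4 (0.984). For the genes whose change did not pass, Neurod6 was closest to Sugt1 and Sh3gl2 (0.915 for each), Emx2 to Sarnp (0.914) and H2afv (0.896), and Zbtb20 to Nsd1 (0.941) and Xkr4 (0.918). After removal of the group means these 16 values of r ran from 0.711 to 0.982. The genes were chosen for high r in the same libraries, so high values here follow in part from that choice.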

How the data were processed

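RNA of 10 libraries, 5 with vehicle and 5 with TTX, was grouped by the titles in the labels. The submitters' processing notes name the rat build rn6, DESeq2, StringTie and HISAT2 2.1.0. No counting tool or strand setting is given in the sources used here, and genes that overlap or lie antisense to one another are therefore uncertain. The authors deposited whole-number counts per gene and library, FPKM values, and the log2 fold changes of their own comparison with p-values. The 20 library columns of a second deposited table were not used. Of 14608 lines, 254 were identical repeats and were dropped. Counts were scaled by TMM, filtered by filterByExpr (at least 10 counts, and 15 in total) and fitted with glmQLFit and glmQLFTest of edgeR 4.0.16 under R 4.3.3, adjusted by Benjamini-Hochberg over 13088 genes. The 1.5-fold threshold used glmTreat. CPM uses TMM library sizes. SEs were taken from the size of the log2 fold change divided by the root of the F statistic, and 95% intervals from a t quantile. Ratios used log2(count + 0.5). No replicate was merged, since each pair within a group differed by more than counting error (chi-square of 9.92 to 23.0 per gene).

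In data simulated for TTX against vehicle (13050 genes), the test recovered 42% of genes changed 1.2-fold and 86% changed 1.5-fold, and 6 of 167 calls were unchanged genes. Only 50 genes were changed at each fold size there, with the same dispersion for every gene. In the measured libraries 70.5% of genes were called, so the simulated shares do not give the recovery in them. Alternatives were other scalings, no filter or 1 CPM in 5 libraries, DESeq2 1.42.0, limma 3.58.1 (voom, and on deposited FPKM + 0.1), a replicate block, a prior count of 2 for ratios, and leaving out each library. The genes and the 16 other lists (211 entries, 189 matched by symbol, 2 by synonym, 1 a repeat and 19 not analysed here) were chosen with earlier results of these data known. One gene was taken out of 3 lists after the analysis and is not reported here. The rule named the 8 genes, the 3 with the lowest p in every list, and for each factor its 2 most similar genes. Bcl11a, Neurod4, Cux2, Tcf3, Tcf4, Tcf12, Id1, Id2, Id3, Id4, Grin2b, Prox1, Aqp4, Gjb6, Fabp7, Nes, Vim and Sox2 were named after their values were seen where that rule did not reach them.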

Additional observations from a re-analysis of the deposited data

How the results depend on the processing

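Under each alternative fit on counts, 5 of the 8 factors were called higher and none lower, and 2 passed 1.5-fold. With the fit on FPKM included, log2 fold changes ran from 1.39 to 1.45 for Neurod2 (adjusted p up to 5.63e-10), 1.36 to 1.43 for Tbr1 (up to 3.17e-09), 0.33 to 0.42 for Neurod1 (up to 0.00190), 0.32 to 0.36 for Satb1 (up to 5.98e-05) and 0.17 to 0.24 for Bcl11b (up to 0.00433). Neurod6 (0.04 to 0.10) and Emx2 (-0.08 to -0.04) kept their sign and did not pass in any. Zbtb20 turned sign without vehicle replicate 2, TTX replicate 2 or TTX replicate 3 and ran from -0.0229 to 0.11 over the libraries left out. The labels' replicate numbers did not pair the libraries: deviations of same-numbered libraries correlated at -0.06 to 0.01, and in none of the 5 was the own number best. With a replicate block 4572 genes were higher and 4563 lower (4638 and 4583 without). A paired sign-flip test of the ratios, as a replicate block, called 0 pairs of factors and 0 ratios to markers, since 5 pairs allow no p below 0.0625. With 1 library left out, 16 to 20 of 28 pairs were called (18 with all), and 6 to 10 of 16 ratios to markers (10 with all), with 6 without vehicle replicate 5, TTX replicate 1 or TTX replicate 5. Leaving out a library raises the smallest possible p to 0.0159. Single pair ratios that reversed, none of them called, were Neurod2 to Tbr1 (-0.0286 to 0.0251 over the libraries left out), Neurod1 to Satb1 (-0.00934 to 0.10), Neurod6 to Zbtb20 (-0.0338 to 0.11), Zbtb20 to pan-neuronal markers (-0.125 to 0.00188) and Bcl11b to excitatory markers (-0.00161 to 0.0559). No list median moved by 0.1 or more with another scaling. Each factor had at least 923 counts in every library, and replicate libraries differed by more than counting error, so the spread between libraries limits small changes more than depth does.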

Other observations

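Markers of the hippocampal fields were counted by direction, where 35.0% of all tested genes were lower with TTX and 35.4% higher. Of 8 dentate granule cell markers tested 4 fell and 1, Prox1, rose (median log2 fold change -0.39). Trpc6, a cation channel, fell by 2.60, C1ql2 by 1.29 and C1ql3 by 1.00. Of 6 CA2 markers 4 fell and none rose (median -0.68), with Rgs14, Ptpn5 and Amigo2 lower by 1.39, 1.07 and 0.97. CA1 markers (2 higher and 3 lower of 7) and CA3 markers (3 higher and 3 lower of 7, median -0.17) moved both ways. Itpka and Man1a1 fell by 0.60 and 0.31, Fibcd1 rose 2.06-fold, Grik4 and Nectin3 rose 1.52-fold and 1.28-fold, and Spock1 fell by 0.29. How the rise of Neurod2 and Tbr1 relates to the field markers in the same libraries was not tested. No list was tested as a whole.

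Counts from 1 to 20 in the table were even in 57.0% of cases, which is above an equal split. The cause was not tested.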
